A study of Homo sapiens with 19 samples.

Results

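Genes of signalling by the gp130 family of cytokines were followed by the RNA level of 10 transcripts, 1 for each of 10 genes. The cells were MDA-MB-231 given siRNA against STAT3 or against HMGN5, and the activity of the pathway was not measured. The transcripts were picked by their Ensembl identifiers from the 175775 that each library lists. They are the ligands IL6 (ENST00000258743.9), LIF (ENST00000249075.3) and IL11 (ENST00000264563.6), the receptor chains IL6R (ENST00000368485.7), IL6ST (ENST00000381298.6), LIFR (ENST00000263409.8) and OSMR (ENST00000274276.7), the kinases JAK1 (ENST00000342505.4) and JAK2 (ENST00000381652.3), and the feedback inhibitor SOCS3 (ENST00000330871.3). The gene names come with these identifiers, since the files list identifiers alone.

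Cytokines of this family share gp130, the signalling chain encoded by IL6ST. A partner chain decides which ligand is bound: IL6R for interleukin 6, LIFR for leukaemia inhibitory factor (LIF), and OSMR for oncostatin M. Kinases of the JAK family bound to these chains phosphorylate STAT3, which then enters the nucleus and activates genes that include SOCS3, whose product binds gp130 and the JAKs and shuts the signal down. In breast cancer cells the pathway is known as a source of persistent STAT3 activity.

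MDA-MB-231 is an established line of human triple-negative breast cancer, and its poly(A) RNA was sequenced in 17 libraries. All cells received siRNA at 30 nM and grew with 10% fetal bovine serum in L15 medium. In the siRNA experiment the groups were siSTAT3 (STAT3 siRNA, 2 libraries), siHMGN5 (siRNA against HMGN5, a protein that binds nucleosomes, 2 libraries) and NC (control siRNA, 4 libraries). In the lentiviral experiment they were siSTAT3_HMGN5 (STAT3 siRNA with a lentivirus carrying HMGN5, 3 libraries), siSTAT3_Vec (STAT3 siRNA with the empty vector, 3 libraries) and NC_Vec (control siRNA with the empty vector, 3 libraries). The labels name neither the promoter that drives the ectopic HMGN5 nor the time of harvest, and do not say whether replicates were separate cultures. The p-values therefore measure the spread between these libraries, which may be technical.

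Libraries held 19114033 to 19509422 estimated reads in the siRNA experiment and 22500086 to 23047081 in the lentiviral experiment, so 3 reads stood for 0.154 to 0.157 and 0.13 to 0.133 CPM, counts scaled by library size. The NC libraries formed 2 pairs, replicates 1 and 2 and replicates 3 and 4. Likeness was read from 361 to 411 transcripts, with whole numbers of reads in every library and at least 20 in the 2 compared together. The mean chi-square per transcript was 41.8 to 47.9 between the NC pairs, 1.99 and 2.32 within them, and 1.79 to 6.47 for pairs of replicates in other groups. Fold changes against NC are therefore also given against each pair. Reads that several transcripts could explain were divided between them by a model, and whole numbers of reads (within 0.0015) were seen in at most 6 of 17 libraries for any detected member. Each value is that of the named transcript, not of its gene. The levels of STAT3 and HMGN5 and of cell type markers were not checked, because their transcripts are not named in the files. In bulk RNA, fewer cells making a transcript and less of it per cell cannot be told apart.

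STAT3 siRNA went with lower LIFR and OSMR, both receptor chains, in both experiments. LIFR fell in each of them, and OSMR fell by much more in the siRNA experiment than in the lentiviral one. The 3 members that differed with ectopic HMGN5 on top of STAT3 siRNA were further from NC_Vec with it than without it. SOCS3 and LIF were lower still and IL6R was higher still, each in the direction of its change with STAT3 siRNA and empty vector. For LIF that change was small, at a log2 fold change of -0.17, and its call ended in several alternatives. In the siRNA experiment LIF lay the other way with STAT3 siRNA, at 0.47, which did not pass (edgeR adjusted p = 0.173).

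IL6 was listed at 0 reads in all 17 libraries and could not be tested, which leaves 9 members in every count below. Calls are adjusted p-values under 0.05 from the edgeR quasi-likelihood test, with Benjamini-Hochberg adjustment over all transcripts tested. In siSTAT3 against NC, 2 members passed, both lower, where 4.28% of all 74346 transcripts passed and 2.92% were lower. Groups of 5 members did not overlap, where 30.9% of all transcripts did not. In siHMGN5 against NC, 0 members passed with edgeR (background 3.39%) and 0 with limma-voom (background 3.99%). An unadjusted p under 0.05 was seen for 3 members, where 16.2% of all transcripts had one, and DESeq2 called 3, namely SOCS3, LIF and LIFR, where it called 13.3% of all. The groups of this comparison did not overlap for 6 members, where 30.6% of all transcripts did not. In siSTAT3 against siHMGN5, 2 members passed, both lower (background 3.89%, of which 1.87% lower), and 8 had groups apart, where 53.5% of all transcripts did.

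In the lentiviral experiment, 6 members passed in siSTAT3_Vec against NC_Vec, 1 higher and 5 lower, against a background of 14.3% (7.2% higher, 7.07% lower), and 8 had groups that did not overlap, against 36.3%. In siSTAT3_HMGN5 against siSTAT3_Vec, 3 members passed, 1 higher and 2 lower, against 3.77% (1.52% higher, 2.25% lower), and 5 did not overlap, against 25.4%. In siSTAT3_HMGN5 against NC_Vec, 8 members passed, 2 higher and 6 lower, against 22.3% (10.9% higher, 11.4% lower), and all 9 had groups apart, against 43%. The median log2 fold change of the 9 members was -0.45 there, against 0.02 for all 69768 transcripts tested. In siSTAT3_Vec against NC_Vec the medians were -0.29 and 0.02, and in siSTAT3_HMGN5 against siSTAT3_Vec they were 0.09 and -0.01.

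**Figure D1:**
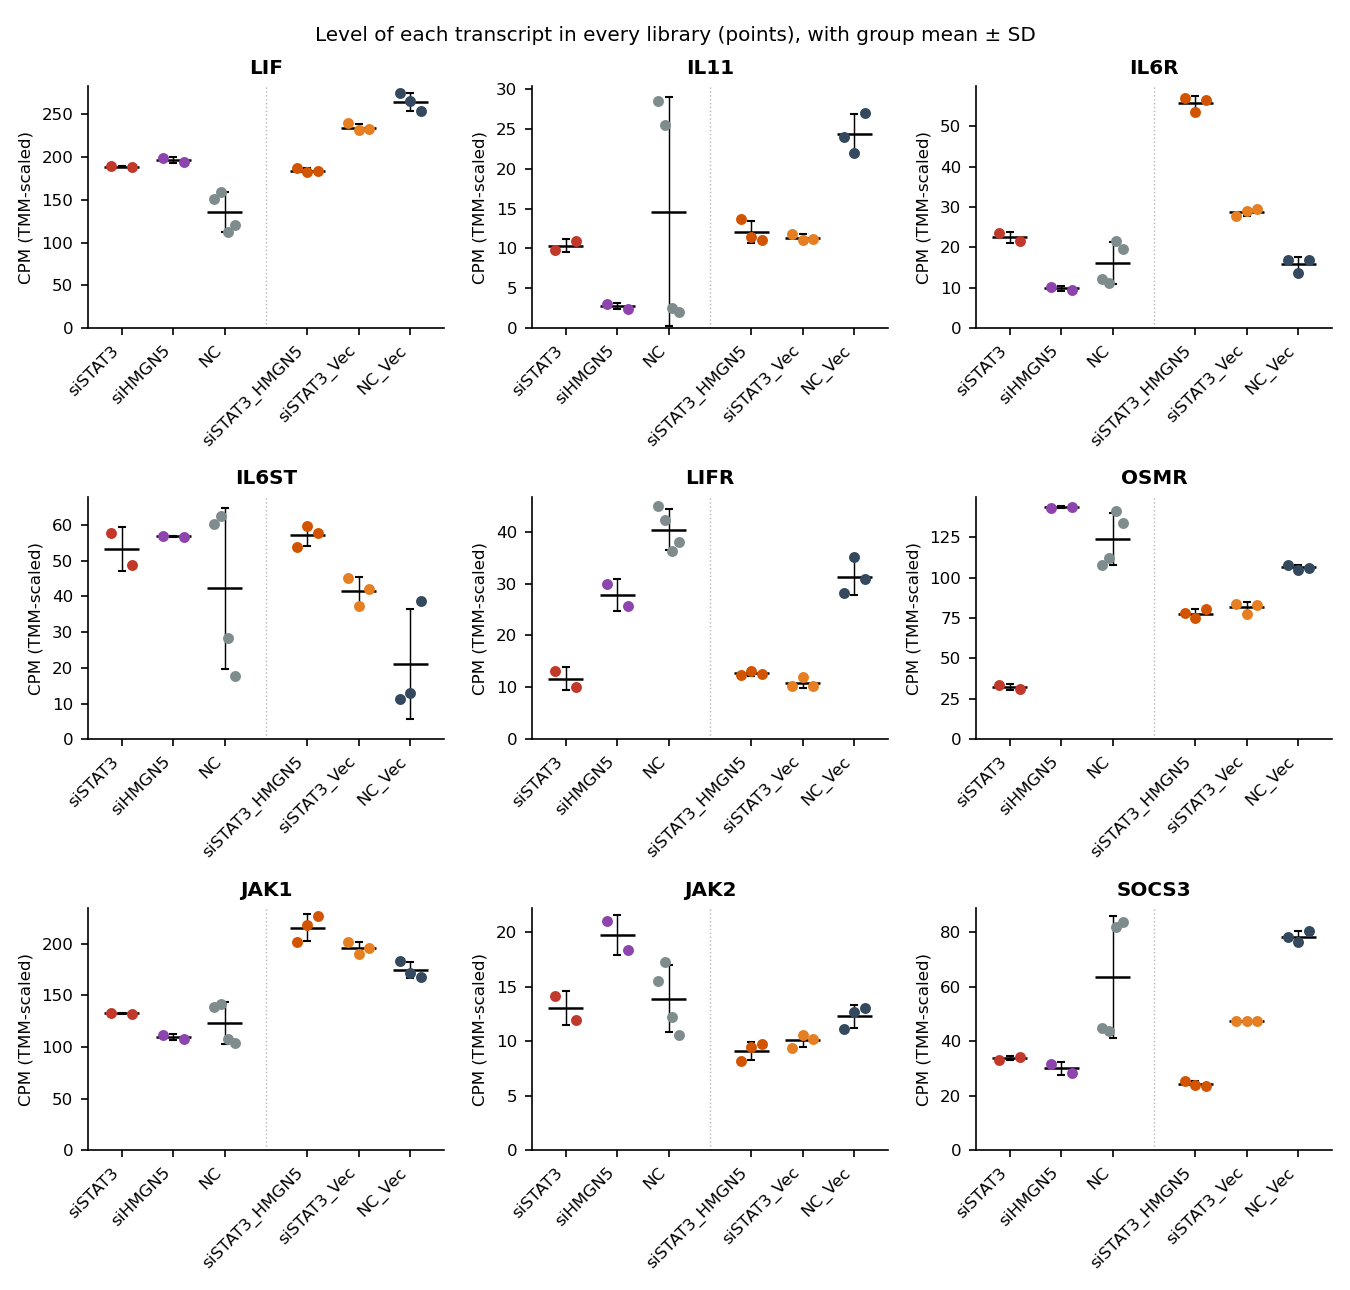
CPM of the 9 detected members in every library (points), with the mean and SD of each group (bars). The siRNA groups are on the left of each panel and the lentiviral groups on the right. LIFR is low in all libraries with STAT3 siRNA, at 10.1 to 13.2 CPM, and SOCS3 steps down to 23.7 to 25.4 CPM in siSTAT3_HMGN5. The NC libraries of IL11, SOCS3 and IL6ST split into 2 pairs.

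Levels can be compared between members only per length, for which the deposited TPM values were used. LIF had the highest group mean in all 6 groups, at 23.6 ± 0.638 TPM in siSTAT3 (SD, n = 2), 25.6 ± 1.91 TPM in siHMGN5 (n = 2) and 19.9 ± 3.43 TPM in NC (n = 4). It lay at 24.8 ± 0.796 TPM in siSTAT3_HMGN5, 31.5 ± 0.914 TPM in siSTAT3_Vec and 36.1 ± 1.63 TPM in NC_Vec (SD, n = 3 each). LIF was not the highest in every library. In NC replicates 3 and 4, SOCS3 lay at 18 and 17.8 TPM and LIF at 16.5 and 17.4 TPM. In siSTAT3_HMGN5 the range of JAK1, 20.6 to 25.1 TPM, overlapped that of LIF, 24.2 to 25.7 TPM. JAK1, SOCS3 and OSMR followed LIF in NC and in NC_Vec, at 10.4 to 18.7 TPM as group means. JAK1 and SOCS3 had close group means in NC, at 14.1 ± 2.32 TPM and 13.8 ± 4.74 TPM, but their order turned with the pair of NC libraries. JAK1 lay above SOCS3 in NC replicates 1 and 2 (16.4 and 15.9 against 10 and 9.42 TPM). It lay below SOCS3 in NC replicates 3 and 4 (12.4 and 11.9 against 18 and 17.8 TPM). IL11, IL6ST, LIFR, IL6R and JAK2 had group means of at most 6.22 TPM.

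The order below LIF changed with treatment. In siHMGN5 OSMR stood at rank 2, at 13.4 TPM, ahead of JAK1 at 11.2 TPM, while JAK1 held rank 2 in the other groups. OSMR stood at rank 5 in siSTAT3 at 2.92 ± 0.231 TPM, and at rank 4 in NC at 12.9 ± 1.67 TPM. Its level per length in siSTAT3 was within the spread of IL6ST at 2.96 ± 0.366 TPM. IL6R stood at rank 4 in siSTAT3_HMGN5 at 5 ± 0.268 TPM, within the spread of SOCS3 at 4.97 ± 0.0864 TPM. In NC_Vec the same transcripts lay at 1.45 ± 0.114 TPM for IL6R, rank 7, and 16.5 ± 0.818 TPM for SOCS3, rank 3. LIF made up 43% of the summed TPM of the 10 members in siSTAT3, 39.8% in siHMGN5 and 27.3% in NC. In the lentiviral experiment its share was 33.9% in siSTAT3_HMGN5, 39.8% in siSTAT3_Vec and 38.6% in NC_Vec.

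**Figure D2:**
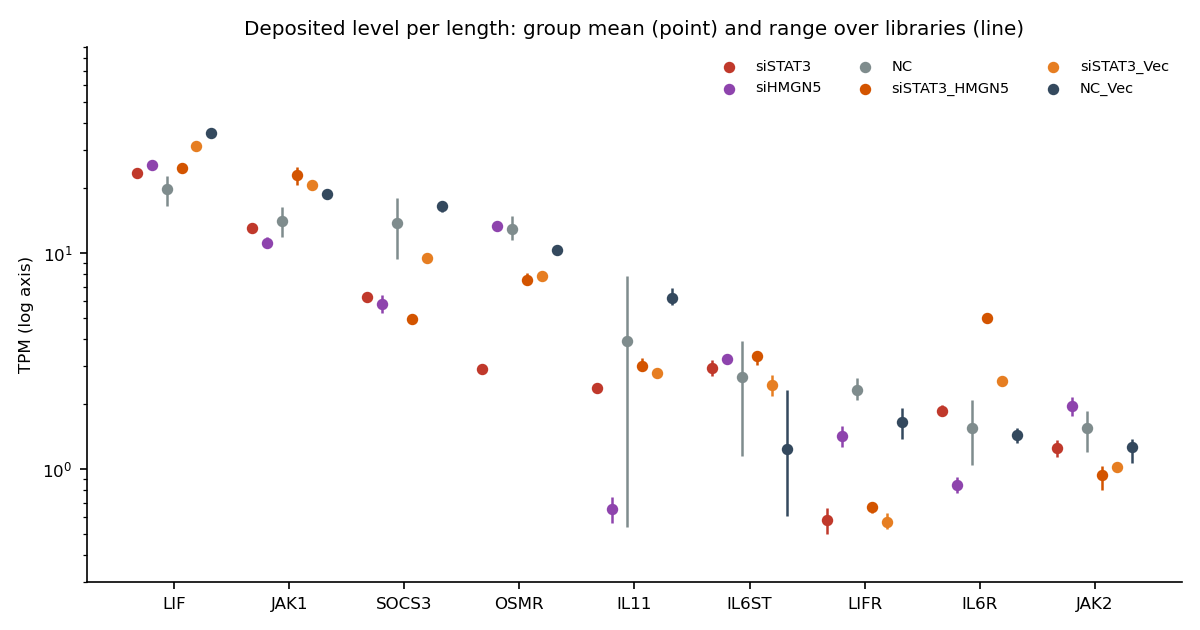
TPM per length on a log axis for the 9 detected members, ordered by their mean in NC, with the group mean (point) and the range over libraries (line). LIF and JAK1 are the highest in most groups. OSMR is low in siSTAT3, at 2.75 to 3.08 TPM, and IL6R is high in siSTAT3_HMGN5, at 4.8 to 5.3 TPM.

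Among the ligands, LIF differed between groups by small steps that were well separated from the spread of the lentiviral replicates. LIF had 187, 182 and 183 CPM in siSTAT3_HMGN5, 239, 231 and 232 CPM in siSTAT3_Vec and 274, 265 and 253 CPM in NC_Vec. No library of a group overlapped with those of the next. In siSTAT3_HMGN5, LIF fell 1.27-fold against siSTAT3_Vec, with a log2 fold change of -0.35 ± 0.04 (SE, edgeR adjusted p = 0.00388), and 1.43-fold against NC_Vec (-0.52 ± 0.04, edgeR adjusted p = 7.1e-05). The step between siSTAT3_Vec and NC_Vec was the smallest that passed for any member, with a log2 fold change of -0.17 ± 0.04 (edgeR adjusted p = 0.0202). That call ended without NC_Vec replicate 2 (adjusted p = 0.0567 by edgeR), without siSTAT3_Vec replicate 2 (0.0918) and without siSTAT3_Vec replicate 3 (0.0708). It also ended for LIF with no low-count filter (0.0614) and in a fit of these 2 groups alone (0.0615), and the direction stayed the same throughout.

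LIF lay the other way in the siRNA experiment. It had 189 and 188 CPM in siSTAT3, 199 and 194 CPM in siHMGN5, and 151, 159, 112 and 120 CPM in NC. Both knockdown groups lay above all NC libraries and close to each other. The log2 fold change was 0.47 ± 0.15 for siSTAT3 against NC (edgeR adjusted p = 0.173) and 0.53 ± 0.15 for siHMGN5 against NC (edgeR adjusted p = 0.14). Against NC replicates 1 and 2 alone the log2 fold changes of LIF were 0.28 and 0.34 in siSTAT3 and siHMGN5 (edgeR adjusted p = 0.0401 and 0.0316), and against NC replicates 3 and 4 alone they were 0.68 and 0.76 (edgeR adjusted p = 0.00805 and 0.00704). The 2 knockdowns share their NC libraries. Their direct difference was -0.06, with a 95% interval of -0.48 to 0.36 on the log2 scale (edgeR adjusted p = 0.954).

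IL11, a ligand that uses its own receptor chain with gp130, was lower with STAT3 siRNA in the lentiviral experiment. Its CPM was 13.7, 11.4 and 11.1 in siSTAT3_HMGN5, 11.8, 11.1 and 11.2 in siSTAT3_Vec, and 24, 21.9 and 27 in NC_Vec. All libraries with STAT3 siRNA lay below all NC_Vec libraries, and those with and without ectopic HMGN5 overlapped. IL11 was 2.13-fold lower in siSTAT3_Vec than in NC_Vec (log2 fold change -1.09 ± 0.12, edgeR adjusted p = 0.000749) and 2.01-fold lower in siSTAT3_HMGN5 than in NC_Vec (SE 0.12 on the log2 scale, edgeR adjusted p = 0.000679). Between siSTAT3_HMGN5 and siSTAT3_Vec the difference was 0.09, with a 95% interval of -0.18 to 0.36 (edgeR adjusted p = 0.867).

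In the siRNA experiment the level of IL11 in NC depended on the pair of libraries. It had 9.83 and 10.9 CPM in siSTAT3, 3.02 and 2.47 CPM in siHMGN5, and 28.5, 25.4, 2.48 and 2.07 CPM in NC. NC replicates 1 and 2 were 11.8-fold above NC replicates 3 and 4, and siSTAT3 lay between the pairs. The log2 fold change of IL11 in siSTAT3 was -1.38 against NC replicates 1 and 2 (edgeR adjusted p = 0.021) and 2.17 against NC replicates 3 and 4 (edgeR adjusted p = 0.0156), so its sign is set by the choice of control libraries. With all 4 NC libraries it was -0.50, with a 95% interval of -3.15 to 2.15 (edgeR adjusted p = 0.907). For siHMGN5 it was -3.29 against the first pair (edgeR adjusted p = 0.00677) and 0.28 against the second (edgeR adjusted p = 0.564), and with all NC libraries it was -2.41, with a 95% interval of -5.37 to 0.55 (edgeR adjusted p = 0.41). Directly, siSTAT3 lay above siHMGN5 by 1.91 ± 1.31 (edgeR adjusted p = 0.533), where the NC libraries share in the estimate of the spread. In a fit of these 2 groups alone the difference of 1.91 passed for IL11 (edgeR adjusted p = 0.0416).

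IL6, the founding ligand of the family, was listed at 0 reads in every library, below the 3 reads that would stand for 0.154 to 0.157 CPM in the siRNA experiment and 0.13 to 0.133 CPM in the lentiviral one. A model that divides reads between transcripts can leave a transcript at 0 while others of its gene receive reads. Other IL6 transcripts were not matched here, so no level of the gene is given.

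Among the receptor chains, LIFR was lower with STAT3 siRNA in both experiments. LIFR pairs with gp130 to bind LIF. It had 13.2 and 10.1 CPM in siSTAT3, 30 and 25.6 CPM in siHMGN5, and 44.9, 42.2, 36.3 and 38 CPM in NC. The 3 groups did not overlap, with siSTAT3 lowest and siHMGN5 between the others. LIFR was 3.47-fold lower in siSTAT3 than in NC (log2 fold change -1.79 ± 0.17, edgeR adjusted p = 0.00438). The difference was -1.90 against NC replicates 1 and 2 (edgeR adjusted p = 0.0127) and -1.69 against NC replicates 3 and 4 (edgeR adjusted p = 0.0127). For siHMGN5 against NC the log2 fold change was -0.54 ± 0.16, with a 95% interval of -0.91 to -0.16, and did not pass (edgeR adjusted p = 0.149), nor did it against the first pair (-0.65, edgeR adjusted p = 0.13) or the second (-0.42, edgeR adjusted p = 0.23).

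The direct comparison put LIFR 2.39-fold lower in siSTAT3 than in siHMGN5 (log2 fold change -1.25 ± 0.18, edgeR adjusted p = 0.0169). This call lay near the threshold and ended without siHMGN5 replicate 1 (adjusted p = 0.0942 by edgeR), without siHMGN5 replicate 2 (0.0603), without siSTAT3 replicate 2 (0.0898) and in a fit of these 2 groups alone, where LIFR differed by -1.26 (0.0613). The direction stayed the same in each. In the lentiviral experiment LIFR had 12.4, 13.2 and 12.5 CPM in siSTAT3_HMGN5, 10.3, 11.9 and 10.2 CPM in siSTAT3_Vec, and 28.1, 35.1 and 30.8 CPM in NC_Vec. All libraries with STAT3 siRNA lay far below NC_Vec. LIFR was 2.89-fold lower in siSTAT3_Vec than in NC_Vec (-1.53 ± 0.11, edgeR adjusted p = 0.000118) and 2.46-fold lower in siSTAT3_HMGN5 than in NC_Vec (-1.30 ± 0.11, edgeR adjusted p = 0.000134). All siSTAT3_HMGN5 libraries lay above all siSTAT3_Vec libraries for LIFR, on the side of NC_Vec. The difference with ectopic HMGN5 was 0.24, with a 95% interval of -0.01 to 0.48, and did not pass (edgeR adjusted p = 0.341).

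The sequences upstream of 2 annotated starts of LIFR are shown because LIFR fell in both experiments. They are also the only start regions among the members searched that hold TTCNNNGAA, a form of the STAT consensus site. Forms with other spacing or other letters were not searched, so the other members may hold such sites. RefSeq (GRCh38.p14) gives 17 annotated starts for 9 of the 10 genes, LIF being without an entry. The 250 bases before each start were searched for TTCNNNGAA, a motif whose reverse complement is the same, so that 1 search covers both strands. It was found in 2 of these 17 windows, both of LIFR, and in 6.57% of all 35116 windows. LIFR has 3 windows, and the one at chr5:38556647-38556896 did not hold the motif. The windows could not be tied to the transcript that was measured, and a match to the motif is a description of letters, not of a bound site. The first window is chr5:38595406-38595655 and the second chr5:38557468-38557717, both on the minus strand, and capitals mark the motif, which begins 165 bases before the start in the first and 182 bases before it in the second.
LIFR window 1: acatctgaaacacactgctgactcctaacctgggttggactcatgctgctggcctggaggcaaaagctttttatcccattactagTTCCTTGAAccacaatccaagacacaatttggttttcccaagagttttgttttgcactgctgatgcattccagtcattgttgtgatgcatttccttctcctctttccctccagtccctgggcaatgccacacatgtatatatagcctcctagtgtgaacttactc
LIFR window 2: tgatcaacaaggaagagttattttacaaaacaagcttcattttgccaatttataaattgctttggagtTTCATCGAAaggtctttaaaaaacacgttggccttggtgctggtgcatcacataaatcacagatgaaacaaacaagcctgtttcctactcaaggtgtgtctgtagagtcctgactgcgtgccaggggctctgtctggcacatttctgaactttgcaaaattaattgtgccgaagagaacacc

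OSMR, the chain that binds oncostatin M together with gp130, had the largest decrease of any called member in siSTAT3 against NC. It had 33.7 and 30.9 CPM in siSTAT3, 143 and 144 CPM in siHMGN5, and 108, 112, 141 and 134 CPM in NC. Both siSTAT3 libraries lay far below the other 6, while siHMGN5 lay just above the highest NC library. OSMR was 3.84-fold lower in siSTAT3 than in NC (log2 fold change -1.94 ± 0.14, edgeR adjusted p = 0.00205) and 4.44-fold lower than in siHMGN5 (-2.15 ± 0.15, edgeR adjusted p = 0.00244). By p-value it stood at rank 129 of 74346 transcripts in the first of these and at rank 97 in the second. The difference from NC was -1.77 with replicates 1 and 2 (edgeR adjusted p = 0.00361) and -2.11 with replicates 3 and 4 (edgeR adjusted p = 0.00295). The value for siHMGN5 against NC was 0.21, with a 95% interval of -0.09 to 0.51 (edgeR adjusted p = 0.475), 0.38 against the first NC pair (edgeR adjusted p = 0.0472) and 0.06 against the second (edgeR adjusted p = 0.65).

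In the lentiviral experiment OSMR had 78.1, 74.8 and 80.4 CPM in siSTAT3_HMGN5, 83.6, 77.8 and 83.2 CPM in siSTAT3_Vec, and 108, 105 and 106 CPM in NC_Vec. The groups with STAT3 siRNA overlapped with each other and lay below NC_Vec. OSMR was 1.3-fold lower in siSTAT3_Vec than in NC_Vec (log2 fold change -0.38 ± 0.05, edgeR adjusted p = 0.00132) and 1.37-fold lower in siSTAT3_HMGN5 than in NC_Vec (-0.45 ± 0.05, edgeR adjusted p = 0.000369). The difference between siSTAT3_HMGN5 and siSTAT3_Vec was -0.07, with a 95% interval of -0.17 to 0.04 (edgeR adjusted p = 0.587). The region before its annotated start, chr5:38845762-38846011 on the plus strand (RefSeq, GRCh38.p14), is given for comparison with LIFR, a related receptor chain, and did not hold the motif.
OSMR window: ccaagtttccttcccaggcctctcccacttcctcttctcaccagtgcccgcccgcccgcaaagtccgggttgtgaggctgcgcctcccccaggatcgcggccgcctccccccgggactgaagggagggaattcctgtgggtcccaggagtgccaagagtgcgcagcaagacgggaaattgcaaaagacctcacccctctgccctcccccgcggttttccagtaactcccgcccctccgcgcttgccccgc

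IL6R, which binds interleukin 6 and presents it to gp130, moved the opposite way to LIFR and OSMR. It had 56.9, 53.5 and 56.6 CPM in siSTAT3_HMGN5, 27.7, 29.1 and 29.4 CPM in siSTAT3_Vec, and 17, 13.7 and 16.8 CPM in NC_Vec. The 3 groups were widely apart. IL6R was 1.81-fold higher in siSTAT3_Vec than in NC_Vec (log2 fold change 0.86 ± 0.09, edgeR adjusted p = 0.000645) and a further 1.94-fold higher in siSTAT3_HMGN5 than in siSTAT3_Vec (0.95 ± 0.09, edgeR adjusted p = 0.00229). Against NC_Vec, siSTAT3_HMGN5 had 3.51-fold more (1.81 ± 0.09, edgeR adjusted p = 1.4e-05).

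The siRNA experiment gave a less clear picture for IL6R. It had 23.5 and 21.5 CPM in siSTAT3, 10.3 and 9.4 CPM in siHMGN5, and 12.3, 11.1, 21.5 and 19.6 CPM in NC. All siHMGN5 libraries lay below NC, and siSTAT3 lay at or just above the upper NC pair. The log2 fold change was 0.48 ± 0.29 in siSTAT3 against NC (edgeR adjusted p = 0.469), 0.94 against NC replicates 1 and 2 (edgeR adjusted p = 0.0289) and 0.12 against NC replicates 3 and 4 (edgeR adjusted p = 0.645). For siHMGN5 it was -0.71 ± 0.30 against NC (edgeR adjusted p = 0.317), -0.25 against the first pair (edgeR adjusted p = 0.392) and -1.06 against the second (edgeR adjusted p = 0.0162). The direct difference of siSTAT3 and siHMGN5 was 1.19 ± 0.34, with a 95% interval of 0.37 to 2.02, and did not pass (edgeR adjusted p = 0.14) in the fit where NC shares in the estimate of the spread. It passed for IL6R in a fit of these 2 groups alone, at 1.19 (edgeR adjusted p = 0.0376), and with DESeq2 (adjusted p = 0.0109).

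IL6ST, which encodes gp130 itself, varied widely within both control groups. It had 57.6 and 48.8 CPM in siSTAT3, 56.8 and 56.7 CPM in siHMGN5, and 60.3, 62.5, 28.4 and 17.7 CPM in NC. In the lentiviral experiment it had 53.8, 59.6 and 57.8 CPM in siSTAT3_HMGN5, 45.1, 37.4 and 42.1 CPM in siSTAT3_Vec, and 11.2, 13 and 38.7 CPM in NC_Vec. NC_Vec replicate 3 lay within the range of siSTAT3_Vec, while the other NC_Vec libraries were far lower. The log2 fold change was 0.99 ± 0.43 for siSTAT3_Vec against NC_Vec (edgeR adjusted p = 0.198) and 1.45 ± 0.44 for siSTAT3_HMGN5 against NC_Vec (edgeR adjusted p = 0.0518). Without NC_Vec replicate 3 both passed, at 1.77 (edgeR adjusted p = 0.000426) and 2.22 (edgeR adjusted p = 0.000119). With all libraries, DESeq2 and limma-voom also called siSTAT3_HMGN5 against NC_Vec, at 1.43 (adjusted p = 0.00278) and 1.68 (adjusted p = 0.0091). All siSTAT3_HMGN5 libraries lay above siSTAT3_Vec, by 0.46 with a 95% interval of -0.54 to 1.46 (edgeR adjusted p = 0.761).

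IL6ST was not called in the siRNA experiment. The difference was 0.33 for siSTAT3 against NC, with a 95% interval of -0.84 to 1.51 (edgeR adjusted p = 0.838), and 0.43 for siHMGN5 against NC, with an interval of -0.74 to 1.60 (edgeR adjusted p = 0.774). Both turned negative against NC replicates 1 and 2, at -0.21 and -0.11 (edgeR adjusted p of at least 0.323), and were 1.19 and 1.30 against NC replicates 3 and 4 (edgeR adjusted p = 0.0628 and 0.0514). The direct difference of siSTAT3 and siHMGN5 was -0.09, with an interval of -1.47 to 1.28 (edgeR adjusted p = 0.988).

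The kinases differed by small amounts. JAK1, which is bound to gp130 and is needed for its signal, had 202, 218 and 227 CPM in siSTAT3_HMGN5, 202, 190 and 196 CPM in siSTAT3_Vec, and 183, 172 and 168 CPM in NC_Vec. The groups lie in small steps, siSTAT3_HMGN5 and siSTAT3_Vec touching at 202 CPM. JAK1 was 1.24-fold higher in siSTAT3_HMGN5 than in NC_Vec (log2 fold change 0.31 ± 0.06, edgeR adjusted p = 0.00571). The steps between them did not pass, at 0.17 ± 0.06 for siSTAT3_Vec against NC_Vec (edgeR adjusted p = 0.0893, though DESeq2 called JAK1 at 0.15 with an adjusted p of 0.037) and 0.14 ± 0.06 for siSTAT3_HMGN5 against siSTAT3_Vec (edgeR adjusted p = 0.274). In the siRNA experiment JAK1 had 133 and 132 CPM in siSTAT3, 112 and 108 CPM in siHMGN5, and 139, 142, 108 and 104 CPM in NC. Both knockdown groups lay inside the range of NC. The 95% interval of the log2 fold change was -0.25 to 0.46 for siSTAT3 against NC (edgeR adjusted p = 0.831) and -0.53 to 0.19 for siHMGN5 against NC (edgeR adjusted p = 0.679). Against NC replicates 1 and 2, JAK1 gave -0.09 in siSTAT3 (edgeR adjusted p = 0.361) and -0.36 in siHMGN5 (edgeR adjusted p = 0.0276). Against NC replicates 3 and 4 it gave 0.31 in siSTAT3 (edgeR adjusted p = 0.0325) and 0.05 in siHMGN5 (edgeR adjusted p = 0.594).

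JAK2, a second kinase of the receptor complex, lay at 1.55 ± 0.317 TPM in NC (SD, n = 4), close to the mean of IL6R at 1.56 ± 0.497 TPM. JAK2 lay above IL6R in NC replicates 1 and 2 (1.77 and 1.87 against 1.23 and 1.05 TPM). It lay below IL6R in NC replicates 3 and 4 (1.37 and 1.2 against 2.09 and 1.86 TPM). JAK2 had 8.15, 9.46 and 9.72 CPM in siSTAT3_HMGN5, 9.39, 10.6 and 10.2 CPM in siSTAT3_Vec, and 11.1, 12.7 and 13 CPM in NC_Vec. Both groups with STAT3 siRNA lay below NC_Vec, and they overlapped with each other. JAK2 was 1.35-fold lower in siSTAT3_HMGN5 than in NC_Vec (log2 fold change -0.43 ± 0.12, edgeR adjusted p = 0.0335), a call that ended when NC_Vec replicate 2 (adjusted p = 0.0951 by edgeR), NC_Vec replicate 3 (0.0968), or siSTAT3_HMGN5 replicate 1 (0.0984), 2 (0.0731) or 3 (0.0569) was left out. It also ended for JAK2 with no low-count filter (0.0787) and in a fit of these 2 groups alone (0.0647), by edgeR. The value for siSTAT3_Vec against NC_Vec was -0.29 ± 0.12 (edgeR adjusted p = 0.163), which DESeq2 called at -0.30 (adjusted p = 0.0367). In the siRNA experiment JAK2 had 14.1 and 11.9 CPM in siSTAT3, 21 and 18.4 CPM in siHMGN5, and 15.5, 17.3, 12.2 and 10.6 CPM in NC. The siHMGN5 libraries lay above all NC libraries and siSTAT3 lay among them, with log2 fold changes of 0.50 ± 0.22 for siHMGN5 against NC (edgeR adjusted p = 0.336) and -0.10 ± 0.23 for siSTAT3 against NC (edgeR adjusted p = 0.906). Neither passed against a single NC pair, at 0.26 and 0.78 in siHMGN5 and -0.34 and 0.16 in siSTAT3 (edgeR adjusted p of 0.0573 to 0.627). Between siSTAT3 and siHMGN5 it was -0.60 ± 0.26 for JAK2 (edgeR adjusted p = 0.315) and 0.27 ± 0.17 for JAK1 (edgeR adjusted p = 0.503).

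SOCS3, the feedback inhibitor of the pathway, stepped down across the groups of the lentiviral experiment. It had 25.4, 23.9 and 23.7 CPM in siSTAT3_HMGN5, 47.5, 47.4 and 47.3 CPM in siSTAT3_Vec, and 78.4, 76.4 and 80.3 CPM in NC_Vec. Replicates lay within a few CPM of each other and the 3 groups were far apart. SOCS3 was 1.65-fold lower in siSTAT3_Vec than in NC_Vec (log2 fold change -0.73 ± 0.04, edgeR adjusted p = 6.71e-05). It was lower again, by 1.95-fold, in siSTAT3_HMGN5 than in siSTAT3_Vec (-0.96 ± 0.04, edgeR adjusted p = 0.000329), where it stood at rank 10 by p-value among 69768 transcripts. Against NC_Vec, siSTAT3_HMGN5 had 3.22-fold less (-1.69 ± 0.05, edgeR adjusted p = 1.62e-06). The 3 values share their groups and are not independent.

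In the siRNA experiment SOCS3 was low after either knockdown. It had 33.2 and 34.4 CPM in siSTAT3, 31.8 and 28.4 CPM in siHMGN5, and 44.7, 43.8, 81.8 and 83.8 CPM in NC. All knockdown libraries lay below all NC libraries, but the NC pairs differed by more than the distance from the lower pair to the knockdowns. The log2 fold change was -0.91 ± 0.32 for siSTAT3 against NC, with a 95% interval of -1.68 to -0.14 (edgeR adjusted p = 0.214), and -1.08 ± 0.33 for siHMGN5 against NC, with an interval of -1.86 to -0.30 (edgeR adjusted p = 0.162). Against NC replicates 1 and 2, siSTAT3 gave -0.39 (edgeR adjusted p = 0.0727) and siHMGN5 gave -0.56 (edgeR adjusted p = 0.0398). Against NC replicates 3 and 4, siSTAT3 gave -1.31 (edgeR adjusted p = 0.00527) and siHMGN5 gave -1.46 (edgeR adjusted p = 0.00476). The knockdowns differed from each other by 0.17, with an interval of -0.69 to 1.02 (edgeR adjusted p = 0.921). SOCS3 thus lay lower with siRNA against HMGN5 in 1 experiment and lower with ectopic HMGN5 on top of STAT3 siRNA in the other, by tests that passed against each NC pair but not against all NC libraries together for siHMGN5.

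SOCS3 is widely described as a direct target of STAT3, so the region before the first of its annotated starts is shown, chr17:78360926-78361175 on the minus strand (RefSeq, GRCh38.p14). TTCNNNGAA was not found in these 250 bases, which says only that these letters are not in this window.
SOCS3 window 1: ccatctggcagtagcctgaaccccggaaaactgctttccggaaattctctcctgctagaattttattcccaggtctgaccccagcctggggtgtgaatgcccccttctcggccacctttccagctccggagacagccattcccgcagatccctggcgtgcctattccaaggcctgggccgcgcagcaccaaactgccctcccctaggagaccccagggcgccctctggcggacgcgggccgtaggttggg

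**Figure D3:**
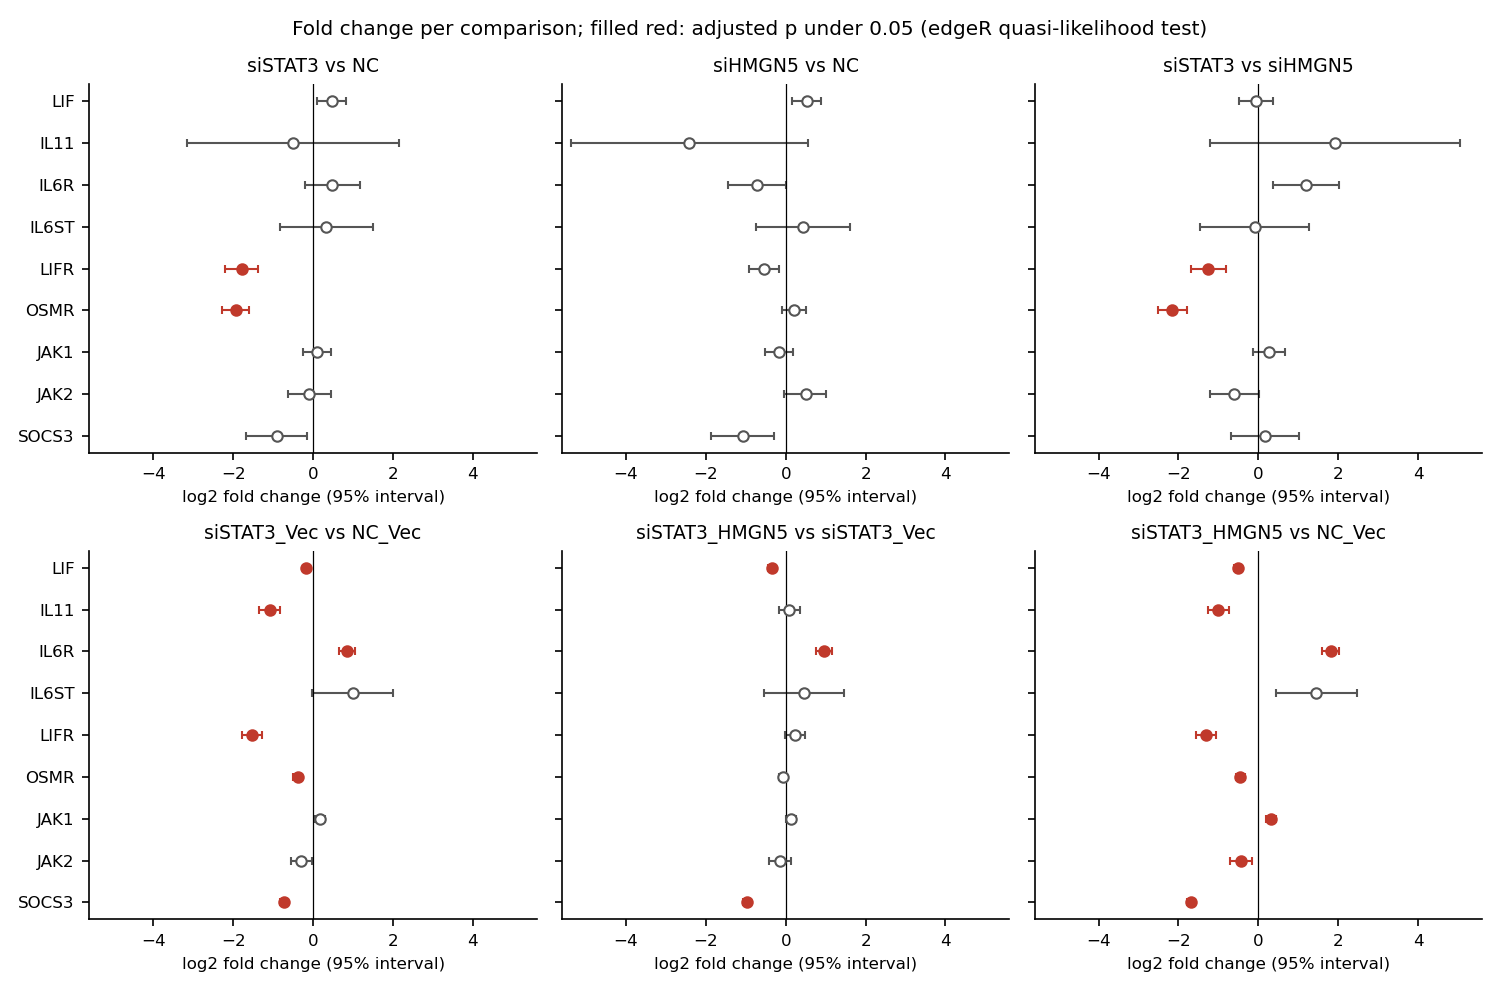
Log2 fold changes with 95% intervals for the 9 tested members in the 6 comparisons, siRNA experiment above and lentiviral experiment below. Filled red points passed the edgeR test at an adjusted p under 0.05. Intervals are wider in the siRNA experiment, most for IL11 (-3.15 to 2.15 in siSTAT3 vs NC), and SOCS3 and IL6R move apart in siSTAT3_HMGN5.

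How far the siRNA results rest on the choice of control libraries was read from fits with 1 NC pair at a time. With NC replicates 1 and 2, 5 members passed in siSTAT3 (background 6.54%) and 5 in siHMGN5 (4.85%), and with NC replicates 3 and 4 the counts were 6 (8.87%) and 3 (8.85%). LIF, LIFR and OSMR passed in siSTAT3 against either pair and in 1 direction. In siHMGN5, SOCS3 and LIF did so. The share of all transcripts that passed against both pairs in 1 direction was not counted, so how many members did so cannot be weighed. The fits with either pair use the same knockdown libraries, so their results are not independent. IL11, IL6ST and JAK1 changed sign with the pair in both comparisons, and JAK2 did in siSTAT3. Between the NC pairs, replicates 3 and 4 had 1.87-fold more SOCS3 and 1.75-fold more IL6R than replicates 1 and 2, while replicates 1 and 2 had 2.66-fold more IL6ST. What sets the NC pairs apart was not tested, and with 2 libraries per knockdown group a difference of that kind cannot be told apart from the treatment.

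**Figure D4:**
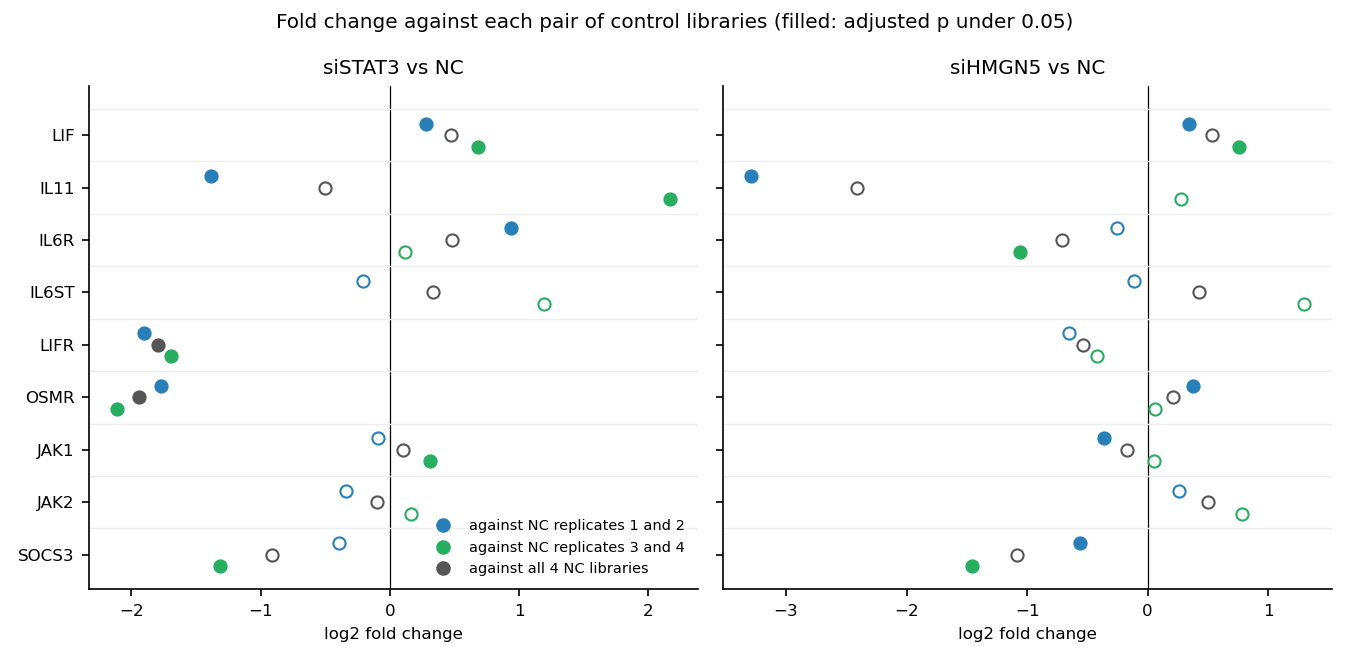
Log2 fold changes of siSTAT3 and of siHMGN5 against all NC libraries, NC replicates 1 and 2, and NC replicates 3 and 4. Filled points passed the edgeR test at an adjusted p under 0.05. LIFR and OSMR lie close together under the 3 choices in siSTAT3, while IL11 ranges from -1.38 to 2.17 in siSTAT3.

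The effect of STAT3 siRNA was then compared between the experiments, which share no library, by an interaction in 1 fit of all 17 libraries. It differed for 2 of 9 members, 1 more positive and 1 more negative in the siRNA experiment, against 5.51% of all 86839 transcripts (2.23% and 3.28%). OSMR fell more in the siRNA experiment, by a difference of log2 fold changes of -1.58 ± 0.14 (edgeR adjusted p = 2.35e-05), which was -1.40 with NC replicates 1 and 2 (edgeR adjusted p = 1.78e-06) and -1.74 with NC replicates 3 and 4 (edgeR adjusted p = 2.33e-07). For LIF the difference was 0.62 ± 0.15 (edgeR adjusted p = 0.0263), with the effect above 0 in the siRNA experiment and below 0 in the lentiviral one. That call ended when NC replicate 4, either siSTAT3 library, NC_Vec replicate 1 or 2, or any 1 siSTAT3_Vec library was left out (adjusted p of 0.0533 to 0.115 by edgeR) and with no low-count filter (0.0604), at the same direction, whereas with either NC pair alone the difference of LIF was 0.44 (edgeR adjusted p = 0.000664) or 0.84 (edgeR adjusted p = 5.41e-06).

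LIFR was lowered in both experiments by amounts whose difference, -0.28 with a 95% interval of -0.68 to 0.12, did not pass (edgeR adjusted p = 0.499). For SOCS3 the difference was -0.21, with an interval of -0.89 to 0.47 (edgeR adjusted p = 0.875), and it changed sign with the NC pair, at 0.32 (edgeR adjusted p = 0.0385) with replicates 1 and 2 and -0.60 (edgeR adjusted p = 0.000549) with replicates 3 and 4. With replicates 3 and 4 as the only NC libraries, 5 members differed (background 10.9%), among them IL11 at 3.26 (edgeR adjusted p = 3.45e-06) and IL6R at -0.75 (edgeR adjusted p = 0.005). Lentiviral infection and experiment change together here and cannot be told apart.

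**Figure D5:**
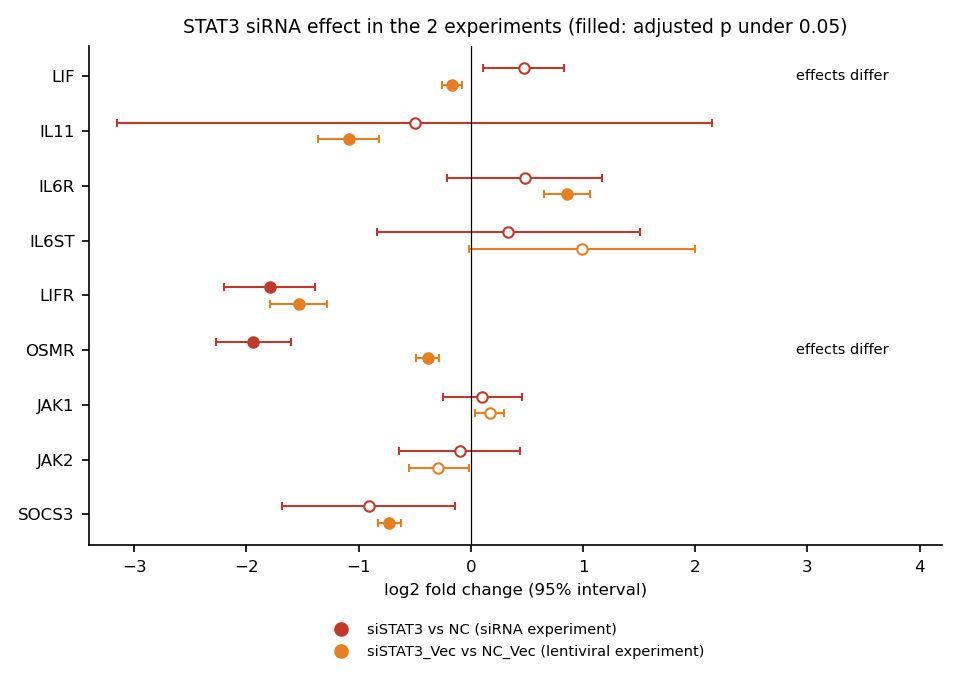
Log2 fold changes with 95% intervals of STAT3 siRNA against control siRNA in the siRNA experiment and in the lentiviral experiment, per member. Filled points passed the edgeR test at an adjusted p under 0.05, and OSMR and LIF, marked at the right, differed between the experiments. OSMR lies at -1.94 in the siRNA experiment and at -0.38 in the lentiviral one.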

How the data were processed

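Poly(A) RNA of 17 libraries was analysed. The 2 CUT&Tag samples are not analysed here. Groups and replicate numbers were taken from the sample titles. Per the file headers, the deposited tables hold TPM and estimated counts for each transcript, with its length and effective length. GRCh38 and hg38 are the builds, and Salmon 1.4.0, HOMER, Bowtie2 and CASAVA the tools, in the submitters' processing notes, while the transcript release and options are not given in the sources used here. Deposited TPM values served only for levels per length.

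Estimated counts were rounded to whole numbers. Each experiment was fitted apart on all its transcripts with edgeR 4.0.16 in R 4.3.3 (TMM scaling, filterByExpr, glmQLFit, glmQLFTest), with Benjamini-Hochberg adjustment and a threshold of 0.05. CPM values were TMM-scaled within an experiment. A standard error is the log2 fold change over the root of its F statistic. The 95% intervals used the total degrees of freedom of the test, the residual ones plus those of the prior. Alternatives were RLE size factors, no low-count filter, an effective-length offset, a replicate block, the 2 compared groups alone, 1 pair of NC libraries, DESeq2 1.42.0, limma-voom (limma 3.58.1) and leaving out each library. The main script was tested on simulated counts.

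All 10 members are named in every comparison. Members and lists were chosen with earlier results of these data known. Lists of other pathway genes, the transcripts most like SOCS3 and sums per gene were planned and not run, because transcripts are not paired with gene symbols in the tables used here. Floors of 3 reads cover counting error only.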

Additional observations from a re-analysis of the deposited data

Results flagged for a closer look

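The effect of STAT3 siRNA differed between the experiments for OSMR and LIF by a test of the difference itself, the siRNA experiment minus the lentiviral one. For OSMR the difference was -1.58 on the log2 scale (edgeR adjusted p = 2.35e-05): siSTAT3 had 32.3 ± 2 CPM (SD, n = 2) against 124 ± 16.1 CPM in NC (n = 4), and siSTAT3_Vec had 81.5 ± 3.27 CPM against 106 ± 1.43 CPM in NC_Vec (n = 3 each). For LIF it was 0.62 (edgeR adjusted p = 0.0263): siSTAT3 had 188 ± 0.935 CPM against 136 ± 23.1 CPM in NC, and siSTAT3_Vec had 234 ± 4.12 CPM against 264 ± 10.5 CPM in NC_Vec. Infection with a vector and the experiment itself changed together, so their parts in these differences cannot be told apart.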

How the results depend on the processing

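Leaving out 1 library gave 414 values of members, of which 388 kept their direction and side of the threshold, 19 lost a call, 2 gained one and 5 changed sign. The other alternatives gave 486 values, of which 427 held, 6 lost a call, 32 gained one and 21 changed sign. LIFR and OSMR in siSTAT3 against NC passed in every alternative, with edgeR adjusted p of at most 0.037 and 0.0302 when 1 library was left out.

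Against NC replicates 1 and 2, or 3 and 4, the members called were 5 or 6 in siSTAT3, and 5 or 3 in siHMGN5. For the effect between experiments 5 were called with replicates 3 and 4. Against replicates 3 and 4 the calls over all transcripts were 6259 in siSTAT3, 6249 in siHMGN5 and 9318 between experiments. Replicates 1 and 2 alone turned siSTAT3 to -0.21 for IL6ST and -0.09 for JAK1, siHMGN5 to -0.11 for IL6ST, and the effect between experiments to 0.32 for SOCS3, -0.30 for IL11, 0.07 for IL6R and -0.07 for JAK2. Replicates 3 and 4 alone turned siSTAT3 to 2.17 for IL11 and 0.16 for JAK2, siHMGN5 to 0.28 for IL11 and 0.05 for JAK1, and the effect between experiments to 0.19 for IL6ST and 0.13 for JAK1. With limma-voom IL11 in siSTAT3 against NC was 0.39. The cause was not tested.

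DESeq2 called more transcripts, 10602 in siSTAT3 against NC (3181 with edgeR), 9891 in siHMGN5 against NC (2521), 10178 in siSTAT3 against siHMGN5 (2893), 16965 in siSTAT3_Vec against NC_Vec (9953), 8078 in siSTAT3_HMGN5 against siSTAT3_Vec (2631) and 10995 between experiments (4784). It called 4 members in siSTAT3 (SOCS3 and LIF besides LIFR and OSMR) and 3 in siHMGN5 against NC. Without a low-count filter, and so with more transcripts tested, 1638 passed in siHMGN5 against NC and 1627 in siSTAT3_HMGN5 against siSTAT3_Vec. Between experiments 1 member differed without the filter, where 3659 of all transcripts tested did. With the other group left out of the fit, 1448 passed in siHMGN5 against NC. In siSTAT3 against siHMGN5, 3409 of all transcripts tested passed in such a fit (2893 in the main fit). The members called there were OSMR, IL11 and IL6R but not LIFR.

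Deviations of same-numbered libraries showed no clear pairing, with correlations of 0.003 to 0.033 in the siRNA experiment and -0.082 to 0.044 in the lentiviral one. With 2 libraries per group in the siRNA check, pairs with unlike numbers gave the same values with opposite sign. The check cannot tell whether samples were paired by design. In fits with a replicate block, NC replicates 3 and 4 are alone in their blocks and drop out. The block left 1622 calls in siSTAT3 against NC, 902 in siHMGN5 against NC and 1156 in siSTAT3_HMGN5 against siSTAT3_Vec. It called 1 member in siHMGN5 against NC (IL11, -3.30). In siSTAT3 against siHMGN5 it called 4 (IL11 and IL6R besides LIFR and OSMR), where 2418 of all 74346 transcripts passed. It turned siSTAT3 to -0.21 for IL6ST and -0.09 for JAK1, siHMGN5 to -0.11 for IL6ST, and the effect between experiments to 0.32 for SOCS3, -0.30 for IL11, 0.06 for IL6R and -0.07 for JAK2.

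With 1 library left out, 775 to 2349 transcripts passed in siSTAT3 against NC, the lowest without siSTAT3 replicate 2 (805 without replicate 1), and 551 to 1838 in siHMGN5 against NC (551 and 630 without siHMGN5 replicates 2 and 1, 1570 and 1537 without NC replicates 3 and 4). In siSTAT3 against siHMGN5, 844 to 972 passed, each of the 4 omissions lowering the count. In the lentiviral experiment 6994 to 8457 passed in siSTAT3_Vec against NC_Vec, 1190 to 1668 in siSTAT3_HMGN5 against siSTAT3_Vec, where each of the 6 omissions lowered the count, and 12176 to 12995 in siSTAT3_HMGN5 against NC_Vec. Between experiments 3061 to 5393 passed, the lowest without siSTAT3 replicate 1. Members called stayed at 2 and 0 against NC for siSTAT3 and siHMGN5, and at 3 for siSTAT3_HMGN5 against siSTAT3_Vec, and numbered 1 to 2, 5 to 7, 7 to 8 and 1 to 2 in the other comparisons in the same order. Signs changed within these ranges: -0.87 to 0.05 for IL11 (above 0 without NC replicate 1) and -0.23 to 0.02 for JAK2 (without NC or siSTAT3 replicate 2) in siSTAT3 against NC, -0.22 to 0.02 for IL6ST in siSTAT3 against siHMGN5 (without siSTAT3 replicate 2), and -0.01 to 0.14 for IL11 in siSTAT3_HMGN5 against siSTAT3_Vec (below 0 without siSTAT3_HMGN5 replicate 1). Where 1 library remained in a group, it was assumed to vary like the others. Sums per gene were not run.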
